A study of Mus musculus with 6 samples.

Results

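The miR-7 family in the mouse consists of 3 genes, mir-7a-1, mir-7a-2 and mir-7b, which were found by name among the 898 miRNA genes of the deposited small-RNA table; all 3 were listed. To identify miRNAs that change when pluripotent embryonic stem cells (ESCs) become neuronal cells (NCs), the study sequenced small RNA from 3 ESC and 3 NC samples of E14Tg2a, a feeder-independent mouse ESC line, at passages 37 to 40. ESCs were kept in leukemia inhibitory factor (LIF), and NCs were the same line after 48 hours in LIF-free medium that held 1 µM retinoic acid (RA). Both groups were cultures of 1 line. The study states that total RNA was taken from a pair of plates, but not that this held for each small-RNA replicate. The labels number 3 replicates in each group and say nothing of how they were handled. For its mRNA sequencing the study states that replicate sets were handled apart from each other, and it calls them biologically independent. It says neither of the small-RNA sets. If the small-RNA sets were not separate cultures, p-values measure only the spread between these samples, which may be technical.

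miR-7 is an ancient miRNA that is best known from neurons and neuroendocrine cells, in brain, pituitary and pancreatic islets. Like other miRNAs it is cut from a hairpin, and 1 arm of the hairpin guides repression of mRNAs that pair with its seed, the bases 2 to 8 of the mature strand. In brain it is bound by the circular RNA Cdr1as, which carries many miR-7 sites and is itself cleaved under the guidance of miR-671.

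The mature strands are shown because their likeness decides which reads can be told apart, with the seed in capitals (RefSeq, GRCm38.p6, 5′ to 3′).
miR-7a-5p: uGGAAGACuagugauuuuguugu
miR-7b-5p: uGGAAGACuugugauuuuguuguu
miR-7a-1-3p: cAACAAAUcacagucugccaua
miR-7a-2-3p: cAACAAGUcccagucugccaca
miR-7b-3p: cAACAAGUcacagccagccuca

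The 5p strand of mir-7a-1 and mir-7a-2 was the same sequence of 23 bases, so a read of it cannot be given to one of these genes. miR-7b-5p had 24 bases and differed from miR-7a-5p by the single substitution A10U (miR-7a-5p first, positions counted from 1 at the 5′ end), outside the seed. Of 1679 mature names in the RefSeq table, 2 held the seed GGAAGAC, and both are miR-7 strands. The 3p strands differed more. miR-7a-1-3p and miR-7a-2-3p differed by 3 substitutions, A7G, A10C and U21C, the first of which lies in the 3p seed.

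The hairpins are shown with both mature strands in capitals, since only the 3p strand, the loop and the flanks separate the mir-7a copies.
mir-7a-1: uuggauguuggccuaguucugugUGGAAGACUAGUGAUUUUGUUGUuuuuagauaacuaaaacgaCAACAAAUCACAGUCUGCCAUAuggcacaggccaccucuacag
mir-7a-2: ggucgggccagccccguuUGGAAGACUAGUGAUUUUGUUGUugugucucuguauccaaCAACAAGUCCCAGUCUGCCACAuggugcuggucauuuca
mir-7b: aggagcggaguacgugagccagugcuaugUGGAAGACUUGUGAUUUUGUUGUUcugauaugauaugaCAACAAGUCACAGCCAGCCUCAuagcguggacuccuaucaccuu

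**Figure D1:**
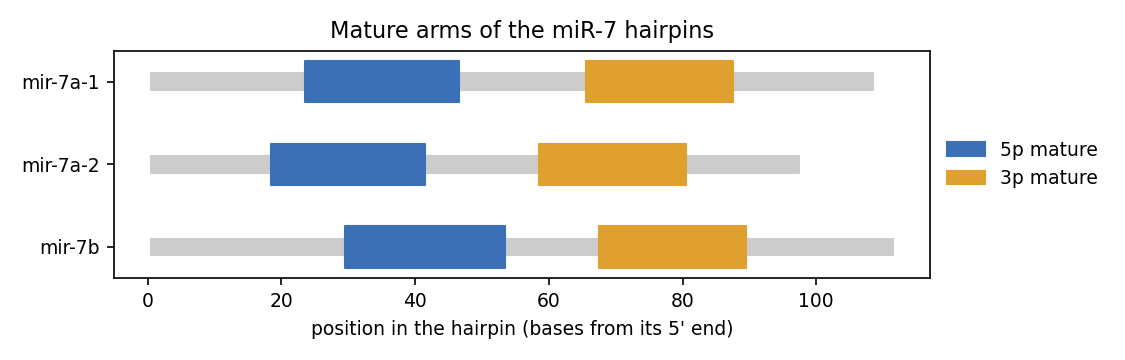
Map of the 3 miR-7 hairpins to scale, with bases from the 5′ end of the hairpin on the x axis and the 5p and 3p mature strands as coloured blocks. The hairpins of mir-7a-1, mir-7a-2 and mir-7b measure 108, 97 and 111 bases and carry the 5p strand at bases 24 to 46, 19 to 41 and 30 to 53.

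The 3 genes lie on different chromosomes (GRCm38, GENCODE M21). mir-7a-1 (Mir7-1, chr13:58392779-58392886, minus strand) lies in an intron of Hnrnpk, which encodes an RNA-binding protein, on the same strand. It overlapped 12 annotated Hnrnpk transcripts, 8 of them protein-coding, and an exon of 0 of them. mir-7a-2 (Mir7-2, chr7:78888277-78888373, plus strand) lies between annotated genes, 7481 bases before Aen. mir-7b (Mir7b, chr17:56242988-56243098, plus strand) also lies between annotated genes, 183 bases after the lincRNA AC026385.1 and 13712 bases before Fem1a. The build is that of the reference used here and also the one named in the submitters' processing notes (mm10).

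The deposited values were means over the 3 libraries of a group, taken by the authors after each library's reads had been divided by its size factor. They are called normalized read counts below. In this unit mir-7a-1 was at 105 in ESCs and 67.3 in NCs, mir-7a-2 at 105 and 68.2, and mir-7b at 1.48 and 2.31. mir-7a-1 thus ranked 155 among the 549 miRNAs above 0 in ESCs and 199 among the 602 above 0 in NCs, and mir-7b ranked 410 and 401. As a share of the summed signal, mir-7a-1 made up 0.00911% in ESCs and 0.00420% in NCs. mir-7a-1 was thus in the upper part of the detected miRNAs by rank in both groups, and mir-7b in the lower part.

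A group mean of 3 libraries with 10 decimals still holds the reads of each library as whole numbers, and these were recovered by solving for 3 whole numbers per mean. Within a group, A names the library with the highest size factor, B the next and C the lowest, and none can be tied to a labelled replicate. Size factors for A, B and C were 1.62, 0.937 and 0.547 among the ESC libraries and 2.31, 0.977 and 0.585 among the NC libraries. That the C libraries of both groups form a set is taken from their values, not from the labels. Reads were recovered in both groups for 585 of the 634 miRNAs above 0 in at least 1 group, and all 3 miR-7 genes were among them.

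In ESCs, mir-7a-1 had 256 reads in library A, 137 in B and 6 in C, or 158, 146 and 11.0 normalized read counts. In NCs it had 225, 87 and 9 reads, or 97.5, 89.1 and 15.4 normalized read counts. The mean was thus 105 ± 81.6 (SD, n = 3) in ESCs and 67.3 ± 45.2 (SD, n = 3) in NCs. Libraries A and B of each group lay close together and library C far below them, so the groups overlapped over all 6 libraries. From high to low the order was ESC A, ESC B, NC A, NC B, NC C and ESC C. Exact Poisson 95% intervals, which cover counting error only, overlapped between A and B of each group (139 to 178 and 122.7 to 173 in ESCs, 85.2 to 111 and 71.3 to 110 in NCs) and between both C libraries (4.02 to 23.9 in ESCs and 7.04 to 29.2 in NCs). The intervals of ESC B and NC A did not overlap, nor did those of NC B and NC C.

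mir-7a-2 had almost the same reads in every library. It had 254, 137 and 6 reads in ESC libraries A, B and C and 228, 85 and 11 in NC libraries A, B and C. The copies differed by 0 to 3 reads per library, and in NC libraries A and C the higher copy was mir-7a-2. Their values are therefore treated as 1 measurement below, since the copies share the 5p strand printed above. The rule by which the authors counted reads that match several genes is not given in the sources used here.

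mir-7b had 2, 3 and 0 reads in ESC libraries A, B and C and 1, 3 and 2 reads in NC libraries A, B and C. Every library was at or under 3 reads. In ESC library C, where no read was seen, the exact Poisson 95% interval reached 3.69 reads, or 6.74 normalized read counts. No fold change is given for mir-7b. Over all libraries of a group, mir-7b held 5 of 404 reads of mir-7b and mir-7a-1 in ESCs (1.24%, Wilson 95% interval 0.530 to 2.86%) and 6 of 327 in NCs (1.83%, 0.844 to 3.94%). These intervals overlapped, and they cover counting error only. The share differed between the libraries of a group, with 0.775% in ESC A, 2.14% in ESC B and 0 of 6 reads in ESC C, and with 0.442% in NC A, 3.33% in NC B and 2 of 11 reads in NC C. The pooled share rests largely on library A, the deepest. Without it the share was 2.05% (3 of 146 reads, Wilson 95% interval 0.701 to 5.87%) in ESCs. In NCs it was 4.95% (5 of 101 reads, 2.13 to 11.1%), and these intervals also overlapped. mir-7b, which is 1 substitution away from the 5p strand of mir-7a, was the minor member in both groups. A difference of mir-7b between ESCs and NCs was not detectable at this depth.

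**Figure D2:**
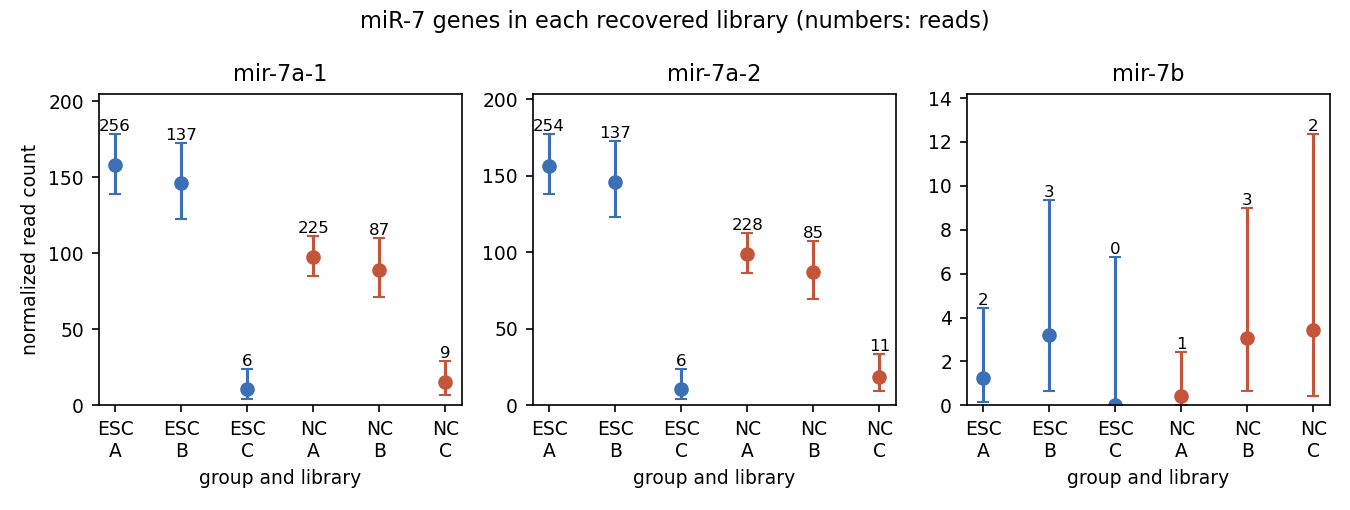
Normalized read count (y axis, from 0) of mir-7a-1, mir-7a-2 and mir-7b in ESC (blue) and NC (red) libraries A, B and C, with exact Poisson 95% intervals and the reads written above. For mir-7a-1, ESC libraries A and B at 158 and 146 lie above NC libraries A and B at 97.5 and 89.1, while the C libraries of both groups lie at 11.0 and 15.4; mir-7b has at most 3 reads anywhere.

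Over all 6 libraries, a difference in the level of mir-7a between ESCs and NCs was not larger than the spread. Divided by the level in ESCs, the mean in NCs was 0.641 for mir-7a-1 and 0.652 for mir-7a-2, or -0.63 and -0.61 on the log2 scale with a pseudocount of 1. In limma-voom over the 291 miRNAs that reached 10 reads in at least 3 libraries, the log2 fold change of mir-7a-1 was -0.41 (SE 1.03, 95% interval -2.83 to 2.02, Benjamini-Hochberg adjusted p = 0.872). For mir-7a-2 it was -0.35 (SE 0.997, adjusted p = 0.882 in the same limma-voom fit). In this fit 17 of the 291 miRNAs were called lower in NCs at an adjusted p under 0.05 (5.84%), and 0 of the 2 miR-7 genes tested were. At an unadjusted p under 0.05 the number of miR-7 genes was also 0, while 78 of all 291 passed. The interval is wide enough to hold a 4-fold change in either direction, so this does not show that the level was the same. An exact two-sided permutation test of the 3 ESC against the 3 NC libraries gave p = 0.60 for mir-7a-1 and p = 0.80 for mir-7a-2, and the smallest p that 3 against 3 allows is 0.10. mir-7b did not reach 10 reads in any library and was not tested in this fit. In small-RNA of bulk cultures, fewer cells of a type and less RNA per cell cannot be told apart.

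Within the deeper libraries the values were separated by group. The mean of A and B for mir-7a-1 was 152 in ESCs and 93.3 in NCs, a ratio of 0.614. ESC libraries A and B lay above NC libraries A and B. The share of all miRNAs that were separated by group in this way is not given here. With the library set (C against A and B) as a covariate, limma-voom gave a log2 fold change of -0.64 (SE 0.176, 95% interval -1.03 to -0.25, adjusted p = 0.0123) for mir-7a-1 and -0.62 (SE 0.187, adjusted p = 0.0190) for mir-7a-2. With libraries A and B only, limma-voom gave -0.69 (SE 0.142, adjusted p = 0.00201) and -0.69 (SE 0.144, adjusted p = 0.00223). The library set was drawn from these same values and not from a label, and mir-7a lay far below A and B in the C libraries. The p-values of both fits therefore rest on a split taken from the data. Many other miRNAs were also called lower in NCs in these fits, 66 of 291 (22.7%) and 66 of 274 (24.1%), and the mir-7a copies are 1 measurement among them. The exact permutation test of 2 against 2 libraries gave p = 0.333 for each copy, which is the smallest that this design allows. The C libraries alone did not show the same direction. There the ratio of NC to ESC was 1.40 for mir-7a-1, with an exact binomial 95% interval of 0.446 to 4.79 from 9 and 6 reads. This compares 1 NC library with 1 ESC library, and the interval covers counting error only.

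The size of this difference also depended on the scaling between the groups. Scaling both groups to the same summed mean without mir-10a, a miRNA of the Hox clusters that held much of the NC signal, shifts every log2 fold change by 0.44. mir-7a-1 then stood at 0.03 in the fit of 6 libraries, at -0.20 (95% interval -0.59 to 0.19) with the library set as covariate and at -0.25 (95% interval -0.56 to 0.06) with A and B only. These intervals include 0. Under other scalings they did not. With the same summed mean in both groups, mir-7a-1 stood at -1.12 (95% interval -1.50 to -0.73) with the covariate and at -1.17 with A and B only, and with the median miRNA centred at 0 it stood at -0.58 (95% interval -0.97 to -0.19) and -0.63. In the fit of 6 libraries the interval included 0 under each of these scalings.

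**Figure D3:**
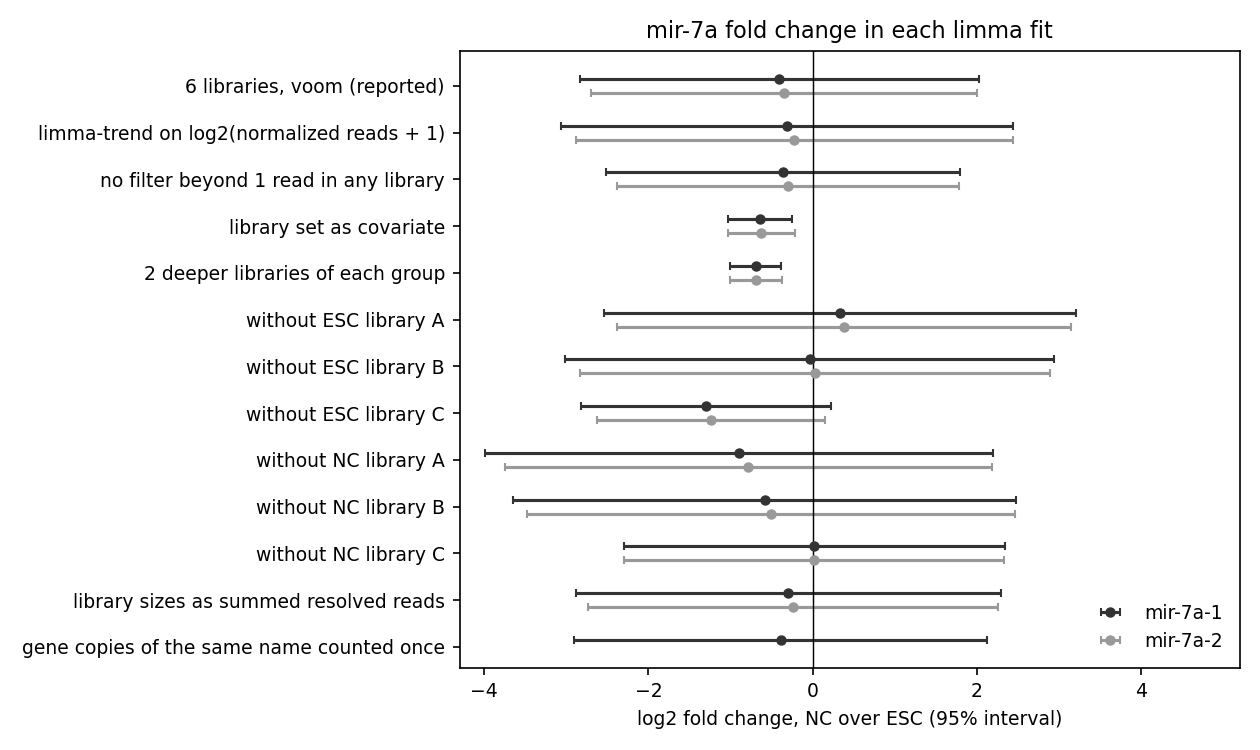
log2 fold change (NC over ESC, x axis) of mir-7a-1 (black) and mir-7a-2 (grey) in each limma fit, with 95% intervals. The intervals exclude 0 in the fits with the library set as covariate (-0.64 and -0.62) and with the 2 deeper libraries of each group (-0.69 for both), and they include 0 in the other fits drawn, such as the fit of 6 libraries (-0.41 and -0.35).

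Library C set mir-7a apart more than it did most miRNAs. At the mean level of A and B, library C would have held 83.2 reads of mir-7a-1 in ESCs and 54.6 in NCs, where 6 and 9 were found. The mean of A and B was 13.9-fold above C in ESCs and 6.06-fold above it in NCs. Among 207 miRNAs with recovered reads and a mean of at least 20 in both groups, the log2 deviation of C from A and B was -3.68 for mir-7a-1 in ESCs, the third lowest after mir-190a (-4.21) and mir-32 (-3.80), and -2.52 in NCs, rank 7 from the lowest. Across these miRNAs the deviation had an SD of 1.26 in ESCs and 1.16 in NCs, against an SD of 0.310 and 0.237 for the difference between B and A. The ESC and NC deviations had a Pearson correlation of 0.793 and a Spearman correlation of 0.869, a description across miRNAs that share libraries. Library C was below both A and B in each group for 85 of the 207 (41.1%), so a lower value in C was common, while few miRNAs were as far below as mir-7a. Other miRNAs were higher in library C. The median deviation was -0.038 in ESCs and 0.0017 in NCs, and the highest was 3.77 in ESCs and 2.18 in NCs. The labels name no batch, and what set the C libraries apart was not tested. A check against base composition was void, since only 151 of the 207 (72.9%) had a mature strand in the RefSeq table.

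**Figure D4:**
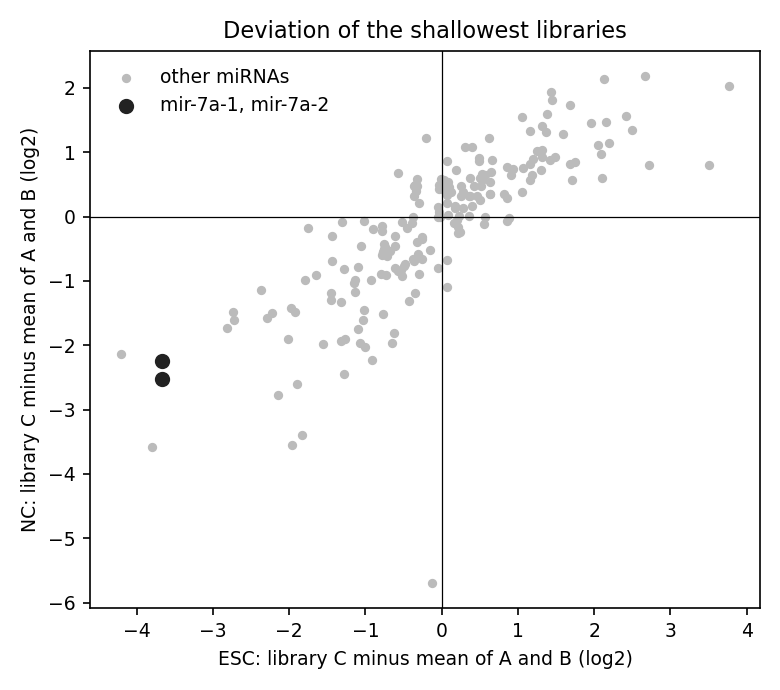
Deviation of library C from the mean of A and B (log2) in ESCs (x axis) and NCs (y axis) for 207 miRNAs, each a point, with mir-7a-1 and mir-7a-2 in black. mir-7a-1 lies at -3.68 and -2.52, near the lower left end of a cloud that runs along the diagonal.

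The miRNAs whose pattern was most like that of mir-7a-1 over the 6 libraries, by Pearson correlation of log2(normalized read count + 1) among 294 miRNAs with a mean of at least 10 in a group, were mir-379 (r = 0.996), mir-467e (r = 0.989) and mir-18b (r = 0.984). For mir-7a-2 they were mir-379 (r = 0.997), mir-146b (r = 0.984) and mir-106b (r = 0.984). They were chosen for this likeness, so it carries no test. mir-379 had 974, 870 and 139 normalized read counts in ESC libraries A, B and C and 606, 656 and 205 in the NC libraries. What these patterns share is a low library C in both groups. For mir-7b, with at most 3 reads per library, the highest correlation was 0.776 (mir-3061).

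Partners of miR-7 in neural and neuroendocrine cells were taken from a short list. mir-375, the islet and pituitary miRNA, and mir-153, a neuronal miRNA that represses α-synuclein as miR-7 does, were listed at 0 in both groups. mir-671, which guides the cleavage of Cdr1as, had 41, 18 and 16 reads in ESC libraries A, B and C and 79, 24 and 19 in the NC libraries. Its log2 fold change in limma-voom was 0.36 (95% interval -0.37 to 1.09, adjusted p = 0.565), and it was not called in any of the 3 fits given for mir-7a. mir-335 was higher in NCs by the authors' means, 883 against 4958, but its NC reads were not recovered and it was not tested. Of the 9 genes in the list of neuroendocrine partners (mir-375, mir-153, mir-335 and the mir-9 and mir-124 copies), 7 were above 0. These were mir-335 and the copies of mir-9 and mir-124, each with a higher mean in NCs. Their median log2 ratio, with each copy counted, was 0.87 and rests on few separate miRNAs. Over all 634 miRNAs above 0 the median was 0.07, so a higher mean in NCs was by itself common. Of the 7, only the mir-9 copies passed the filter. They were called in 0 of 3 cases in the fit of 6 libraries and in 3 of 3 with the library set as covariate, higher in NCs. Over all miRNAs tested, 29 of 291 (9.97%) were called higher in NCs in the fit of 6 libraries and 63 of 291 (21.6%) with the covariate. The mir-9 copies had nearly the same reads in every library and amount to 1 measurement. The mir-124 copies, with at most 19 reads in a library, also amount to 1 measurement.

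mir-9-1, a gene of the neurogenic miR-9, gave a comparison that needs no scaling between libraries. It had 810, 387 and 196 reads in ESC libraries A, B and C and 1538, 671 and 555 in the NC libraries. Its own log2 fold change in limma-voom was 0.87 with the library set as covariate and 0.58 with A and B only. A lower ratio in NCs can therefore come from mir-9-1 as well as from mir-7a-1. The reads of mir-7a-1 divided by those of mir-9-1 gave 0.316, 0.354 and 0.0306 for ESC libraries A, B and C and 0.146, 0.130 and 0.0162 for the NC libraries. ESC libraries A and B lay above all NC libraries and ESC library C below NC libraries A and B, so the groups overlapped (exact permutation p = 0.50 over 3 against 3 libraries). With A and B alone they did not overlap, and the exact permutation p was 0.333, the smallest for 2 against 2. Divided by mir-671 reads instead, mir-7a-1 gave 6.24, 7.61 and 0.375 for ESC libraries A, B and C. For the NC libraries it gave 2.85, 3.625 and 0.474 (exact permutation p = 0.60 over 3 against 3 libraries). With A and B alone the groups did not overlap here either (exact permutation p = 0.333). In the C libraries the ratio to mir-671 was higher in NCs, while the ratio to mir-9-1 was lower. mir-124-1, a copy of the neuronal miR-124, had 2, 4 and 1 reads in ESCs and 19, 4 and 2 in NCs, too few to compare with mir-7a.

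**Figure D5:**
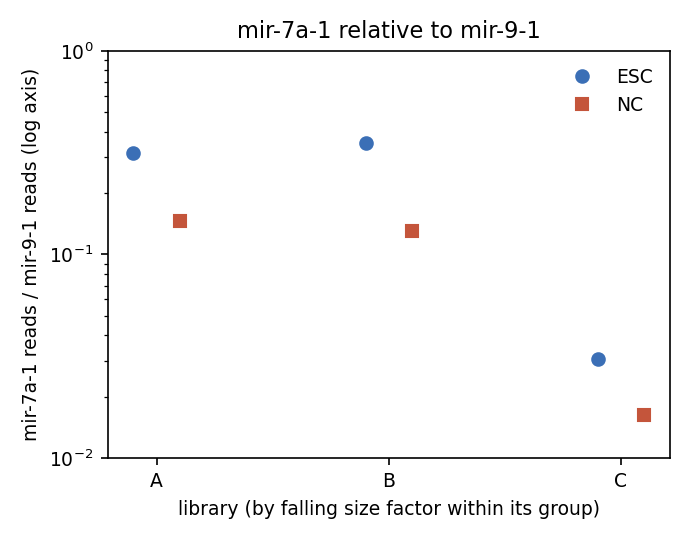
Reads of mir-7a-1 divided by reads of mir-9-1 in each library (y axis, log scale) for ESC (circles) and NC (squares) libraries A, B and C. The ratio is 0.316 and 0.354 in ESC libraries A and B against 0.146 and 0.130 in NC libraries A and B, and 0.0306 and 0.0162 in the C libraries.

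Some other brain-enriched miRNAs rose in NCs. In a list of 15 genes, 13 were above 0, 10 of them with a higher mean in NCs. The median log2 ratio, with each gene copy counted, was 1.81 against 0.07 over all 634 miRNAs above 0. Since the median over all lay above 0, a higher mean in NCs was by itself common among all miRNAs. Of the 12 tested, 5 were called higher in NCs in the fit of 6 libraries (mir-135a-1, mir-135a-2, mir-138-1, mir-138-2 and mir-219a-2). With the library set as covariate 8 were, where mir-218-1, mir-218-2 and mir-219a-1 joined them. Over all miRNAs tested, 29 of 291 (9.97%) and 63 of 291 (21.6%) were called higher in these fits. The copies of mir-135a, of mir-138 and of mir-218 had similar reads within each library, so each pair amounts to 1 measurement. With A and B only, 5 of 9 tested were called higher, where 64 of all 274 (23.4%) were. Of the 5 called in the fit of 6 libraries, mir-135a-1, mir-135a-2 and mir-219a-2 were under 10 reads in every ESC library and entered the test only through the NC libraries, so they had to differ to be tested. The count is therefore not a measure of the list. No member was called lower in any of these fits. mir-128-1, mir-129-1 and mir-129-2 had lower means in NCs (80.0 and 71.4, 103 and 92.1, and 97.4 and 91.6 normalized read counts in ESCs and NCs). mir-138-1, a brain-enriched miRNA that acts at dendrites, had a log2 fold change of 2.57 (SE 0.259, adjusted p = 0.000634 in limma-voom). The difference between these miRNAs and mir-7a was not itself tested.

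The markers of the labelled cell types were as follows. Of 13 miRNAs of the ESC clusters miR-290 to miR-295 and miR-302 with miR-367, 7 were tested. All 7 were called lower in NCs in the fit of 6 libraries, where 17 of all 291 (5.84%) were. The summed mean of the 13 was 137809 in ESCs and 31427 in NCs. Most of this sum came from mir-291a, mir-292 and mir-293, whose reads were not recovered and which were not tested. They were at 34392, 78854 and 20988 in ESCs and at 6000, 17207 and 7432 in NCs. The neural markers, the mir-9 and mir-124 copies, had a summed mean of 1272 in ESCs and 2319 in NCs, with each copy counted. In a list of neuroendocrine markers, mir-375 was the only gene that is not a miR-7 member. The 5 muscle miRNAs in the table were listed at 0 in both groups. Of 3 blood miRNAs, mir-142 was at 924 in ESCs and 357 in NCs, and it was also low in the C libraries (340 in ESCs and 47.9 in NCs, against 1083 and 1351 and 505 and 517 in A and B); in the limma-voom fit with the library set as covariate it was called lower, as mir-7a was, and the other blood miRNAs were under 5 normalized read counts in every library. The 4 liver and gut miRNAs had a summed level of 1012 to 3001 in ESC libraries and 658 to 2457 in NC libraries, and 0 of the 3 tested were called in these fits. Whether other cells had a part in the level of mir-7a was not tested.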

How the data were processed

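The authors deposited 1 table for 6 small-RNA libraries, with signal values that average, over the libraries of a group, the reads after division by size factors. The submitters' processing notes name DESeq, with no version, and the build mm10; adapter removal, aligner, annotation and the counting of reads that match several genes are not given in the sources used here. Columns with the authors' fold changes and p-values were not used.

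Whole reads were recovered by writing each mean as whole multiples of 3 steps, 1 per library, found from the low values and refined by least squares. A miRNA counted as resolved where exactly 1 solution lay within the rounding and fewer than 0.05 solutions were expected by chance. Of the miRNAs above 0, this resolved 514 of 549 for the ESC libraries (93.6%) and 555 of 602 for the NC libraries (92.2%). Means above 6000 were not tried, and other high means were left where the solutions expected by chance passed this limit. Resolved reads, 36802 to 139771 per library, therefore held 7.30% of the ESC and 3.85% of the NC signal and are not the depth. The recovery and the fit of 6 libraries were tested on simulated data. The recovered reads were right for 493 of 493 resolved miRNAs in ESCs and 517 of 517 in NCs. The fit called 67 of 68 changed miRNAs, with 4 false calls. The simulated reads held no deviation of library C beyond its size factor, so the test of the fit does not cover that deviation.

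limma 3.58.1 (R 4.3.3) with voom weights used the recovered size factors, a minimum of 10 reads in at least 3 libraries, and Benjamini-Hochberg adjustment over all of them. Because the table holds means, the comparison of means carries no test. Members and lists were chosen with earlier results of these data known. The named miRNAs were the 3 members, the 3 most alike by correlation for each member, and fixed lists. The ratios to mir-9-1 and mir-671, the permutation of A and B, the deviation of library C and the mir-7b share without library A were added after the data were seen. Alternatives covered the pseudocount, scaling, filters, weights, covariate, copies and each library left out. Python 3.11.15, numpy 2.4.6, pandas 2.3.3, scipy 1.17.1 and matplotlib 3.10.9 were used.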

Additional observations from a re-analysis of the deposited data

How the results depend on the processing

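No paired analysis was possible because no recovered library can be tied to a labelled replicate. On the group means, the log2 ratio of mir-7a-1 kept its sign under every pseudocount, scaling and copy rule tried, from -1.10 (same summed mean) to -0.20 (same summed mean without mir-10a), and that of mir-7a-2 from -1.08 to -0.17. In limma-voom the fold changes moved past the threshold with the library set as covariate (-0.64 for mir-7a-1 and -0.62 for mir-7a-2) and with the 2 deeper libraries of each group (-0.69 and -0.69); the spread that the C libraries add is smaller in these by construction. Leaving out 1 library gave -1.30 to 0.33 for mir-7a-1 and -1.24 to 0.38 for mir-7a-2, with adjusted p-values from 0.222 to 0.996 and 0.210 to 0.996. The direction turned without ESC library A (0.33 and 0.38), without NC library C (0.02 and 0.01) and, for mir-7a-2, without ESC library B (0.03), and mir-7a-1 was then at -0.04; without ESC library C they were at -1.30 and -1.24. Other limma settings gave -0.39 to -0.30 for mir-7a-1. With at least 10 reads in every library the mir-7a genes were not tested. The number of miRNAs called was 46 in the fit of 6 libraries, 129 with the covariate, 130 with the deeper libraries, 26 with at least 10 reads in every library, and 16 to 47 with 1 library left out (23 without ESC A, 30 without ESC B, 20 without NC A and 16 without NC B); the cause was not tested. Few reads limit what can be said of mir-7b, at 3 reads or fewer per library, and of mir-7a in the C libraries, at 6 to 11 reads. At the mean level of A and B, library C would have held 83.2 reads of mir-7a-1 in ESCs and 54.6 in NCs. What lowered mir-7a in the C libraries was not tested.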
